A study of Mus musculus with 4 samples.

Results

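The genes described here are 34 genes of the cell death machinery: the Bcl2 family, the caspases with Apaf1 and their inhibitors, and p53 with its Mdm regulators and a few of its target genes. They were taken by gene symbol from a table of 23361 mouse genes, and all 34 symbols were found there. RNA-seq compared hair peg cells of embryonic mouse back skin that express Nfatc1 (Nfatc1+ cells, 2 libraries) with hair peg cells that express Shh (Shh+ cells, 2 libraries), to look for what sets the upper hair peg, where stem cell precursors arise, apart from the growing part below. Both populations carried Rosa-stop-tdTomato, a red reporter switched on by Cre, and K14-H2BGFP, a green nuclear label of keratinocytes, and cells positive for both were sorted at E17.5. Cre came from Nfatc1-CreER in one population and from Shh-CreER in the other, and pregnant mothers of both had received tamoxifen, which activates CreER, at E15.5. A red cell had therefore used the Nfatc1 or the Shh driver around the time of tamoxifen, and descendants of such cells were sorted as well. Nfatc1+ cells were released from whole skin by 16 min in 0.25% trypsin (37°C). Skin used for Shh+ cells spent 1 h in dispase (0.4 mg/ml, 37°C) so that the epidermis could be discarded, and trypsin then acted on the dermal side alone for 10 min, where the hair pegs remained. Population and digestion cannot be told apart in this design. Whether replicate libraries came from different litters or animals is not given in the sources used here, and a p-value therefore reflects only how these libraries vary, possibly for technical reasons.

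In the mitochondrial pathway of apoptosis, prosurvival proteins such as Bcl2 and Mcl1 hold in check the pore-forming proteins Bax and Bak1, and BH3-only proteins release that hold when a cell is damaged or deprived of survival signals. Pores in the outer mitochondrial membrane free cytochrome c, which assembles with Apaf1 to activate Casp9 and then the executioner caspases. The transcription factor p53, encoded by Trp53, raises several of these genes after DNA damage and is kept low by Mdm2 and Mdm4. Apoptosis is best known in hair follicles from catagen, the regression phase of the hair cycle. These data hold mRNA levels only, and the activity of these proteins depends largely on their binding partners, cleavage and stability.

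Levels are in FPKM, the number of sequenced fragments of a gene divided by its transcript length and by the size of the library. Differences are given as log2 (FPKM + 0.5) in Shh+ minus Nfatc1+ cells, a scale on which low genes appear to change less than they do, while a fold is the quotient of the 2 mean FPKM. A gene was called when limma's adjusted p over the 12750 tested genes, those averaging 0.5 FPKM or more, was under 0.05. Of the 34 genes 33 were tested, and Hrk lay below the minimum level.

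The labels were borne out by the genes that drive the Cre lines. Nfatc1 was at 112 and 116 FPKM in Nfatc1+ libraries against 25.3 and 20.1 in Shh+ libraries, and Shh at 10.5 and 11.7 against 144 and 145. Relative to Nfatc1+ replicate 1, the depth recovered from the steps between low values was 0.927 in Nfatc1+ replicate 2 and in Shh+ replicate 1 and 0.575 in Shh+ replicate 2, and absolute depth is unknown. The epithelial keratin genes Krt5, Krt14 and Krt15 were all above 795 FPKM in every library. Several marker lists moved with the population. Merkel cell markers (8 of 10 called higher in Nfatc1+, summed 65.1 to 73.5 against 24.5 to 29.8 FPKM), sebaceous gland markers (7 of 8 tested, 160 to 170 against 34.6 to 40.2), genes of the follicle and basal epithelium (4 of 6, with 1 higher in Shh+, 7808 to 7950 against 4827 to 4836) and immediate early and stress genes that digestion can raise (16 of 23 tested, with 3 higher in Shh+, 4581 to 4965 against 3160 to 3510) were mostly higher in Nfatc1+ cells. Differentiated epidermis markers were mostly higher in Shh+ cells (6 of 8 tested, with the other two higher in Nfatc1+, 947 to 992 against 1184 to 1380 FPKM). All 10 melanocyte markers were higher in replicate 2 of both groups, and 1 of them, Mitf, was called, at 9.74 and 12.3 FPKM in Nfatc1+ against 0.860 and 1.29 in Shh+ libraries. The melanocyte sum was 32.2 and 67.1 FPKM in Nfatc1+ and 8.20 and 46.1 in Shh+ libraries. Dermal markers summed to 369 and 659 FPKM in Nfatc1+ and 605 and 669 in Shh+ libraries (2 of 9 tested called higher in Nfatc1+ and 1 in Shh+). Most of the Shh+ sums came from Dcn, the 1 gene called in that direction (40.3 and 57.7 against 326 and 425 FPKM). The 2 called higher in Nfatc1+ cells were Col3a1 and Vim. Endothelial and leukocyte markers summed to at most 5.45 and 9.06 FPKM with none called, and the leukocyte genes Cd3e and Cd207 were listed at 0 in all libraries. The part of any of these cells, or of the digestion, in the differences below was not tested. In sorted bulk RNA, fewer cells of a type and less RNA per cell cannot be told apart.

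Nearly all of the machinery was transcribed in both populations. Trp53 had the highest mean level of the 34 genes (127 FPKM, above 96.2% of tested genes), followed by Mcl1 (63.2), Bax (49.7), Casp2 (36.8) and Casp6 (34.4), while Bik (2.51) and Casp14 (2.70) were the lowest of the tested ones. Hrk, a BH3-only gene best known from neurons, was at 0.0496 and 0.0357 FPKM in Nfatc1+ and 0.125 and 0.0287 in Shh+ libraries, so the groups overlapped. Of the 33 tested genes, 9 were higher in Shh+ cells (18.1% of all tested genes were called in that direction), 7 were higher in Nfatc1+ cells (18.9% of all) and 17 were not called. The share called in either direction was 48.5%, against 37% of all tested genes. The libraries of one population all lay above those of the other for 24 of the 33 genes (72.7%), close to the 70.7% of all tested genes. The median difference of the 33 genes was 0.05 on the log2 scale, beside 0.00 over all tested genes.

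**Figure D1:**
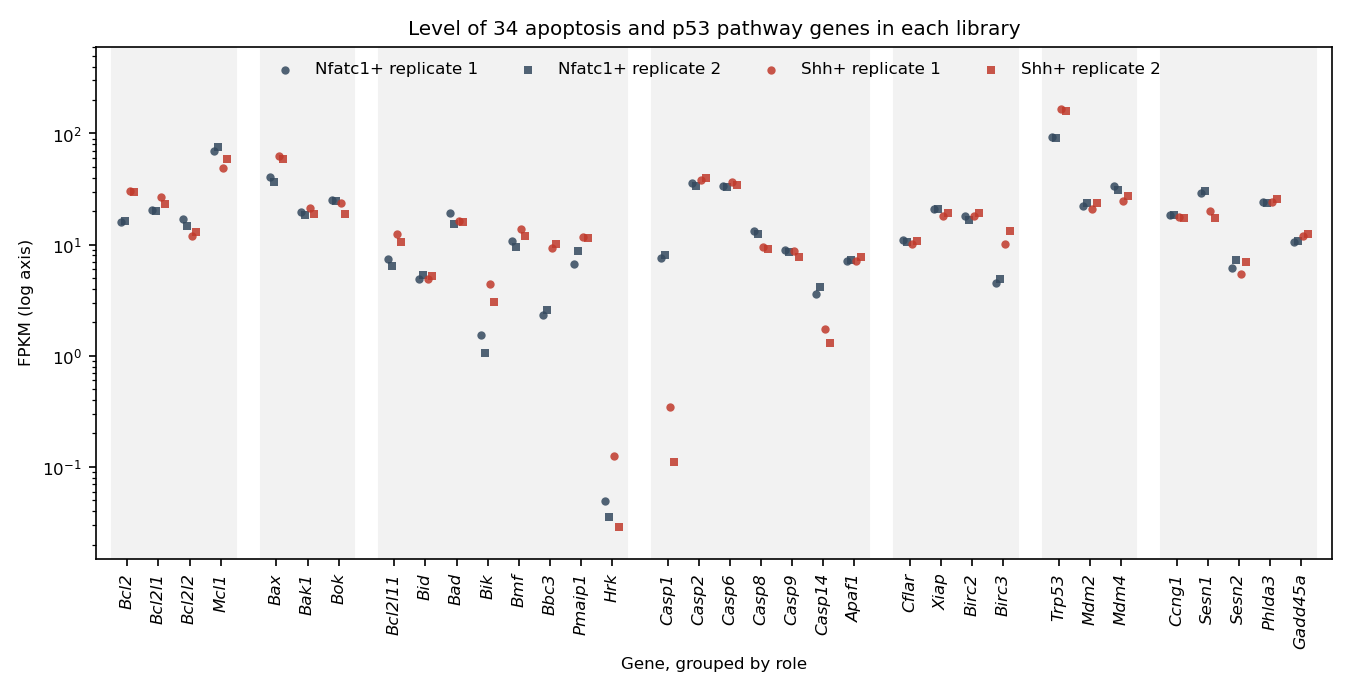
FPKM of each of the 34 genes in every library, on a log axis, grouped by role, with one point per library of Nfatc1+ and Shh+ cells (2 each). Trp53 lies highest, at 92.0 and 91.9 in Nfatc1+ and 165 and 158 in Shh+ libraries, Hrk lies lowest, and Casp1 shows the widest gap between the populations.

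Differences of at least 2-fold were few. Bbc3, Bik and Birc3 were called and at least 2-fold higher in Shh+ cells (3 of 33 genes, beside 4.77% of all tested genes), and Casp1 and Casp14 at least 2-fold higher in Nfatc1+ cells (2 of 33, beside 5.81%). The remaining 11 called genes differed by less than 2-fold.

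**Figure D2:**
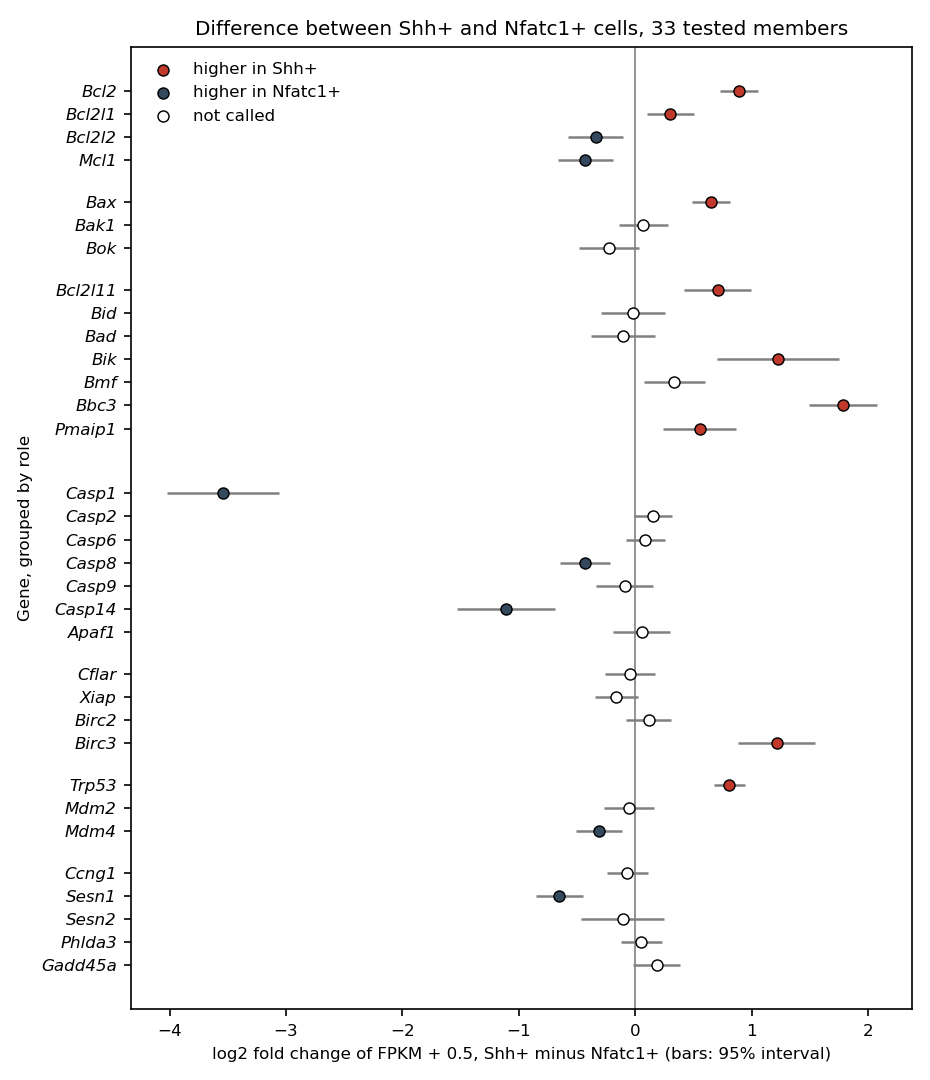
Difference in log2 (FPKM + 0.5) between Shh+ and Nfatc1+ cells for the 33 tested genes with its 95% interval from limma (2 libraries a group), grouped by role and marked by the call at an adjusted p under 0.05. Bbc3 (1.78) lies farthest to the Shh+ side and Casp1 (-3.54) farthest to the Nfatc1+ side, and all 4 called BH3-only genes lie on the Shh+ side.

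Of the BH3-only genes, the sensors that start mitochondrial apoptosis, 4 of the 7 tested were higher in Shh+ cells (beside 18.1% of all tested genes) and none was higher in Nfatc1+ cells. Their median difference was 0.55 on the log2 scale. Bbc3 encodes Puma, which binds every prosurvival Bcl2 protein and is a direct p53 target. It was at 2.32 and 2.61 FPKM in Nfatc1+ and at 9.35 and 10.0 in Shh+ libraries. The groups were far apart, with a 3.94-fold ratio of means (log2 difference 1.78, SE 0.12, limma adjusted p = 6.5e-05). The gene spans chr7:16308398-16318334 (GRCm38).

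Bik, a BH3-only protein of the endoplasmic reticulum, was low in all libraries. It was at 1.54 and 1.06 FPKM in Nfatc1+ and 4.39 and 3.06 in Shh+ libraries (2.86-fold, log2 difference 1.22, SE 0.22, limma adjusted p = 0.00526, chr15:83526790-83544635). Replicate 1 was the higher of each pair, and both Shh+ libraries lay above both Nfatc1+ libraries. Bcl2l11 encodes Bim, which is induced when growth factors are withdrawn. Its levels were 7.37 and 6.37 FPKM in Nfatc1+ and 12.5 and 10.6 in Shh+ libraries, without overlap (1.68-fold, log2 difference 0.71, SE 0.12, limma adjusted p = 0.00431, chr2:128126038-128162547). Bbc3, Bik and Bcl2l11 were called under each of the 12 alternative fits.

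Pmaip1 encodes Noxa, which mainly neutralises Mcl1. It was at 6.73 and 8.78 FPKM in Nfatc1+ libraries and at 11.6 and 11.4 in Shh+ libraries (1.49-fold, log2 difference 0.55, SE 0.13, limma adjusted p = 0.017, chr18:66458604-66465558). The Nfatc1+ libraries differed from each other by more than the Shh+ libraries did, and the groups did not overlap. The call was lost without Nfatc1+ replicate 1 (adjusted p = 0.072), Shh+ replicate 1 (0.0661) or Shh+ replicate 2 (0.0546), over a range of 0.00572 to 0.072 across the 12 alternatives.

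Bmf, which senses loss of attachment and is bound to the cytoskeleton until then, was at 10.7 and 9.55 FPKM in Nfatc1+ and 14.0 and 11.9 in Shh+ libraries. The groups did not overlap, but the difference missed the threshold (log2 difference 0.34, 95% interval 0.07 to 0.60, limma adjusted p = 0.0523). It passed in 5 of the 12 alternatives, among them the fit without Shh+ replicate 2 (0.0371) and the fit with the replicate number as a block (0.0232), with adjusted p from 0.0232 to 0.232. Bid, which links death receptors to mitochondria, overlapped between groups (4.92 and 5.31 against 4.88 and 5.18 FPKM, log2 difference -0.02, 95% interval -0.30 to 0.26). Bad, which is switched off by survival kinases, overlapped as well (19.4 and 15.4 against 16.2 and 16.0 FPKM, log2 difference -0.10, 95% interval -0.38 to 0.17).

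The 4 prosurvival genes were all called (beside 37% of all tested genes), and they split evenly in direction. Of these 4 calls, only that of Bcl2 held in every alternative fit. Bcl2 was at 15.9 and 16.3 FPKM in Nfatc1+ and 30.6 and 30.1 in Shh+ libraries. Replicates nearly coincided within each population, and Bcl2 was 1.88-fold higher in Shh+ cells (log2 difference 0.89, SE 0.07, limma adjusted p = 0.000121, called in 12 of 12 alternatives). It spans chr1:106538176-106714290 and overlaps exons of D630008O14Rik on the other strand. The strand setting of the counting is not given in the sources used here, so reads of such a pair cannot be told apart. The same limit holds for Bak1 (with Ggnbp1), Bid (with Bcl2l13), Bad (with Gpr137), Casp9 (with Cela2a and Ctrc) and Gadd45a (with E230016M11Rik).

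Mcl1, a short-lived protein that many cell types need to survive, had the opposite direction. Its levels were 69.6 and 75.4 FPKM in Nfatc1+ and 48.9 and 59.1 in Shh+ libraries, and the groups did not overlap. Mcl1 was 1.34-fold higher in Nfatc1+ cells (log2 difference -0.43, limma adjusted p = 0.0142, chr3:95656944-95663179). The call was lost without Nfatc1+ replicate 2 (0.0595) and without a mean-variance trend (0.0602), over a range of 0.00192 to 0.0602.

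Bcl2l1, whose main product is Bcl-xL, was 1.24-fold higher in Shh+ cells (20.2 ± 0.284 against 25.0 ± 2.30 FPKM, mean ± SD, n = 2 libraries a group, log2 difference 0.30, limma adjusted p = 0.0311, chr2:152758732-152833803). Bcl2l2, also called Bcl-w, was 1.28-fold higher in Nfatc1+ cells (15.9 ± 1.66 against 12.5 ± 0.571 FPKM, log2 difference -0.34, limma adjusted p = 0.0357, chr14:54883366-54890858). It shares exons with Gm20521 on its own strand, so its reads may be divided between them. Each of these calls held in only 7 of 12 alternatives. For Bcl2l1 it was lost without Nfatc1+ replicate 1 (0.0856), Nfatc1+ replicate 2 (0.118) or Shh+ replicate 1 (0.123) and with no filter on low values (0.0534), with adjusted p from 0.0188 to 0.123. For Bcl2l2 it was lost without Nfatc1+ replicate 1 (0.206), Shh+ replicate 1 (0.125) or Shh+ replicate 2 (0.0611) and with no filter (0.0652), with adjusted p from 0.0311 to 0.206. Both were also lost without the trend.

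Of the pore-forming proteins, Bax was called. It was at 40.3 and 37.0 FPKM in Nfatc1+ and 62.4 and 59.4 in Shh+ libraries, well apart and 1.58-fold higher in Shh+ cells (log2 difference 0.65, SE 0.07, limma adjusted p = 0.000522, called in 12 of 12 alternatives, chr7:45461695-45466903). Its exons overlap those of Gm45808 on the same strand. Bak1, which can stand in for Bax, overlapped between groups (19.8 and 18.5 against 21.4 and 19.0 FPKM, log2 difference 0.07, 95% interval -0.14 to 0.28). Bok, a less studied relative, was at 25.2 and 24.8 FPKM in Nfatc1+ and 23.7 and 19.1 in Shh+ libraries and was not called (log2 difference -0.23, 95% interval -0.49 to 0.03, limma adjusted p = 0.142). Shh+ replicate 2 was the low library, and without Shh+ replicate 1 Bok was called higher in Nfatc1+ cells (0.0198, in 1 of 12 alternatives, which ranged from 0.0198 to 0.534).

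Since FPKM are scaled for transcript length, levels can be added within a role group. The 4 prosurvival genes summed to 123 and 126 FPKM in Nfatc1+ and 118 and 125 in Shh+ libraries, so their total overlapped while its makeup differed. Mcl1 supplied 56.6% and 59.6% of that sum in Nfatc1+ and 41.4% and 47.1% in Shh+ libraries, and Bcl2 12.95% and 12.90% against 25.87% and 23.96%. The pore-forming sum was 85.4 and 80.3 FPKM against 107 and 97.4, with Bax supplying 47.2% and 46.0% of it in Nfatc1+ and 58.1% and 60.9% in Shh+ libraries.

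The BH3-only sum was 53.1 and 49.2 FPKM in Nfatc1+ and 73.0 and 68.2 in Shh+ libraries. Bbc3 made up 4.37% and 5.30% of it against 12.8% and 14.7%, whereas the share of Bad was 36.6% and 31.4% against 22.2% and 23.4%. Divided by the prosurvival sum, the pore-forming sum was 0.694 and 0.635 in Nfatc1+ and 0.910 and 0.777 in Shh+ libraries, and the BH3-only sum 0.431 and 0.389 against 0.618 and 0.544. Both quotients were thus higher in each Shh+ library than in each Nfatc1+ library. Bcl2 over Bax, a quotient often quoted for the balance of survival and death, was 0.396 and 0.441 against 0.490 and 0.506, with Bcl2 1.88-fold and Bax 1.58-fold higher in Shh+ cells. These sums are descriptions of mRNA: with 2 libraries a group the exact permutation test cannot give a two-sided p below 1/3.

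**Figure D3:**
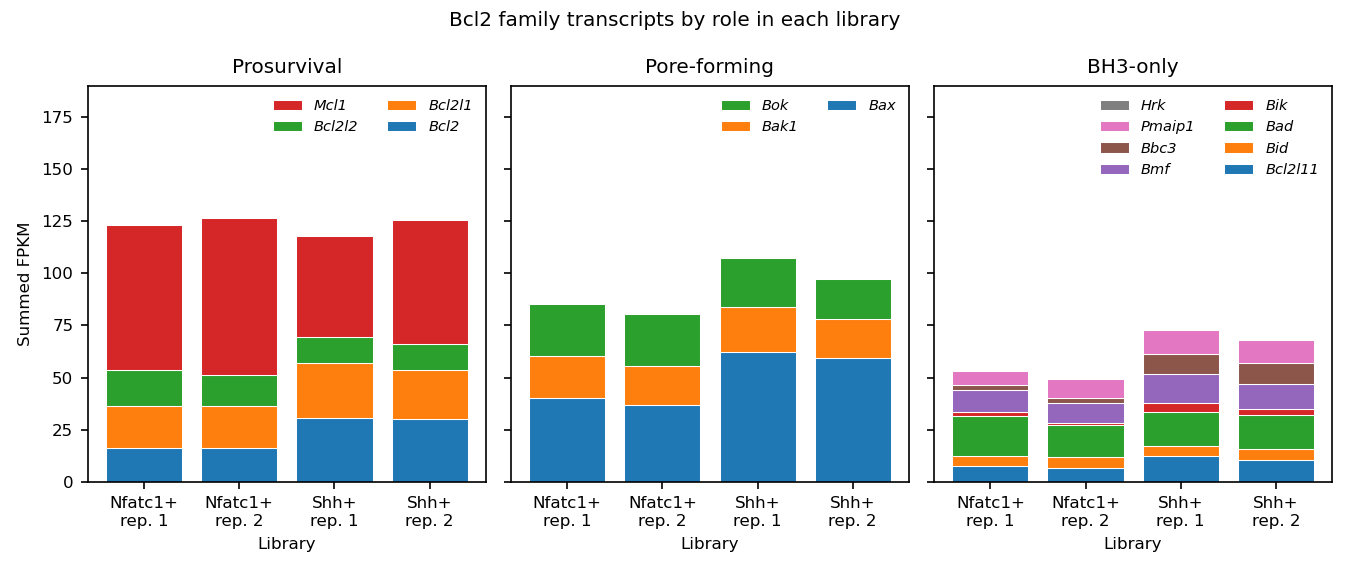
Summed FPKM of the prosurvival, pore-forming and BH3-only genes in each of the 4 libraries, as bars from 0 divided by gene. The prosurvival bars are of similar height in both populations (118 to 126) with a larger Bcl2 and a smaller Mcl1 share in Shh+ cells, and the BH3-only bars are taller in Shh+ cells (68.2 and 73.0) than in Nfatc1+ cells (49.2 and 53.1).

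Caspases are the proteases that act downstream. Of the 7 genes of this group, Apaf1 included, 3 were higher in Nfatc1+ cells (beside 18.9% of all tested genes). No gene of the group was called higher in Shh+ cells (beside 18.1% of all). The share called in either direction was 42.9%, beside 37% of all tested genes, with a median difference of -0.09 on the log2 scale. Casp1, the inflammatory caspase that matures interleukin-1β, had the largest difference of the 33 tested genes. It was at 7.63 and 8.09 FPKM in Nfatc1+ and 0.343 and 0.111 in Shh+ libraries. The Shh+ libraries lay far below the Nfatc1+ libraries, with a 34.6-fold ratio of means (log2 difference -3.54, SE 0.20, limma adjusted p = 3.1e-05, called in 12 of 12 alternatives, chr9:5298517-5307281). Both Shh+ values were below the minimum mean of 0.5 FPKM, which Casp1 passed through the Nfatc1+ libraries, and the ratio was 71.1 without Shh+ replicate 1 and 22.9 without Shh+ replicate 2. Its neighbours in the same cluster on chromosome 9, the inflammatory caspase gene Casp4 and Casp12, were at most 0.191 FPKM in the mean of either population and were not tested.

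Casp14 works in cornification rather than in apoptosis. It was at 3.57 and 4.19 FPKM in Nfatc1+ and 1.75 and 1.31 in Shh+ libraries (2.53-fold, log2 difference -1.11, SE 0.18, limma adjusted p = 0.00303, called in 12 of 12 alternatives, chr10:78711995-78718347). Nfatc1+ cells were thus higher for Casp14, although most of the differentiated epidermis markers given above were higher in Shh+ cells. Casp8, the initiator of the death receptor pathway, was 1.37-fold higher in Nfatc1+ cells (12.8 ± 0.480 against 9.36 ± 0.333 FPKM, n = 2 libraries a group, log2 difference -0.43, limma adjusted p = 0.00926, chr1:58795233-58847503). Its call was lost in 1 of 12 alternatives, without Nfatc1+ replicate 1 (0.0618, range 0.00778 to 0.0618).

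The core of the mitochondrial caspase cascade was not called. Apaf1, the scaffold of the apoptosome, was at 7.13 and 7.21 FPKM against 7.16 and 7.81 (log2 difference 0.06, 95% interval -0.19 to 0.30). Casp9, the initiator it activates, was at 8.93 and 8.68 against 8.77 and 7.72 (log2 difference -0.09, 95% interval -0.34 to 0.16). The groups overlapped for both. Casp2, linked to mitotic damage, was at 35.8 and 33.7 FPKM against 38.0 and 39.4 (limma adjusted p = 0.12), and the executioner Casp6 at 34.01 and 32.7 against 36.7 and 34.3 (0.36). For both genes the Shh+ libraries lay slightly above the Nfatc1+ libraries.

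Among the inhibitors, Birc3 was called. It encodes cIAP2, a ubiquitin ligase of TNF receptor signalling and a well-known NF-kappa-B target. It was at 4.51 and 4.90 FPKM in Nfatc1+ and 10.2 and 13.1 in Shh+ libraries (2.48-fold, log2 difference 1.21, SE 0.14, limma adjusted p = 0.000692, called in 12 of 12 alternatives, chr9:7847468-7873205). Its closest relative Birc2, encoding cIAP1, lies beside it at chr9:7818226-7837131 and was at 18.0 and 16.7 FPKM against 18.2 and 19.4 (log2 difference 0.11, 95% interval -0.08 to 0.31). The Shh+ libraries lay above the Nfatc1+ libraries for both genes, by far less for Birc2, which was not called.

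Xiap, which binds and blocks caspases directly, was at 20.8 and 21.0 FPKM in Nfatc1+ and 18.0 and 19.4 in Shh+ libraries (log2 difference -0.16, limma adjusted p = 0.143). Cflar, the decoy of Casp8 known as c-FLIP, overlapped between groups (11.0 and 10.5 against 10.1 and 10.7 FPKM, log2 difference -0.05, 95% interval -0.26 to 0.17).

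Trp53 mRNA was higher in Shh+ cells. It was at 92.0 and 91.9 FPKM in Nfatc1+ and 165 and 158 in Shh+ libraries, with replicates close together and the groups far apart (1.76-fold, log2 difference 0.81, SE 0.06, limma adjusted p = 7.3e-05, called in 12 of 12 alternatives, chr11:69580348-69591873). p53 is controlled mostly at the level of protein stability, which these data do not measure. Mdm2, at once the ligase that degrades p53 and a p53 target, overlapped between groups (22.1 and 23.8 against 20.7 and 23.5 FPKM, log2 difference -0.05, 95% interval -0.26 to 0.16). Trp53 over Mdm2 was therefore 4.17 and 3.86 in Nfatc1+ and 7.98 and 6.71 in Shh+ libraries. Mdm4, which blocks p53 without degrading it, was 1.25-fold higher in Nfatc1+ cells (32.3 ± 2.12 against 25.9 ± 1.88 FPKM, n = 2 libraries a group, log2 difference -0.31, limma adjusted p = 0.026). The Mdm4 call was lost without Nfatc1+ replicate 1 (0.135), without Shh+ replicate 1 (0.102) and without the trend (0.0754), over a range of 0.0234 to 0.135.

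Known p53 targets among the 34 genes lay in both directions. Bbc3, Bax and Pmaip1, described above with the Bcl2 family, were called higher in Shh+ cells. Of the 5 targets outside the cell death machinery, none was called higher in Shh+ cells and 1 was higher in Nfatc1+ cells, a share of 20% beside the 37% of all tested genes called. This was Sesn1, a stress protein that restrains mTORC1, at 29.0 and 30.3 FPKM in Nfatc1+ and 19.9 and 17.52 in Shh+ libraries (1.58-fold, log2 difference -0.65, SE 0.09, limma adjusted p = 0.00125, called in 12 of 12 alternatives, chr10:41810574-41908436). The groups did not overlap. Ccng1, which encodes cyclin G1 and is among the most regular p53 targets, was at 18.4 and 18.5 FPKM against 17.8 and 17.4 (log2 difference -0.07, 95% interval -0.24 to 0.11). Phlda3, an inhibitor of Akt, overlapped between groups (24.3 and 23.9 against 24.01 and 26.0 FPKM, 95% interval of the log2 difference -0.12 to 0.23), and so did Sesn2, a relative of Sesn1 (6.10 and 7.33 against 5.47 and 6.95, -0.47 to 0.25). Gadd45a, a growth arrest gene of the DNA damage response, was at 10.6 and 10.9 FPKM against 12.04 and 12.5 and was not called (limma adjusted p = 0.135).

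The start regions of these genes were searched for the p53 half-site, the 10-base decamer consensus that p53 binds in pairs, with every base matching the consensus, which reads the same on both strands. The windows ran from 250 bases before to 50 bases after each RefSeq start (GRCm38.p6). A window was found for 32 of the 34 genes, Bik and Pmaip1 being the others, and 8 of these (25%) held a half-site, beside 9.55% of 27025 genes with a window. The 34 genes were chosen to include p53, Mdm2 and known p53 targets, so a share above that of all genes is no finding in itself. The 8 are shown 5′ to 3′ on the gene's strand with the half-site in capitals and 10 bases on either side. They show which of the genes compared above carry the motif close to a RefSeq start. For Sesn1, Bmf and Birc2 the site lies inside the span of the gene, beside a start other than the outermost one.
Bax (chr7:45467080-45467109, minus strand): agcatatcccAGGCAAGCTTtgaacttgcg
Trp53 (chr11:69580274-69580303, plus strand): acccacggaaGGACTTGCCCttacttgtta
Mdm2 (chr10:117710925-117710954, minus strand): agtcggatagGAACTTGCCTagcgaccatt
Sesn1 (chr10:41887256-41887285, plus strand): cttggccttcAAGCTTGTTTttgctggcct
Ccng1 (chr11:40755452-40755481, minus strand): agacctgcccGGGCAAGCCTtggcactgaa
Gadd45a (chr6:67037428-67037457, minus strand): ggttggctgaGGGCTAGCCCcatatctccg
Bmf (chr2:118544781-118544810, minus strand): cccaagtgaaGGGCTTGCCTcttgccgaat
Birc2 (chr9:7836777-7836806, minus strand): cagtcaacccAGGCTAGTCTcgaatttgcg

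The genes with a half-site did not share a direction. Bax and Trp53 were called higher in Shh+ cells (2 of the 7 genes so called that had a window), Sesn1 higher in Nfatc1+ cells (1 of 7), and Mdm2, Ccng1, Gadd45a, Bmf and Birc2 in neither (5 of 17). A match is a description of these letters, not evidence of binding, and sites outside the window were not searched.

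A further 74 genes of these pathways, listed by role, were in the table, and 58 of them were tested. Shh+ cells were higher for 10 of these and Nfatc1+ cells for 13 (39.7% called, beside the 37% of all tested genes), with a median difference of -0.08 on the log2 scale. The largest part was 34 tested p53 family and target genes, with 9 called in the Shh+ direction and 7 in the Nfatc1+ direction. Their share called was 47.1%, beside the same 37%. By direction, 18.1% of all tested genes were called higher in Shh+ and 18.9% higher in Nfatc1+ cells. Called at 2-fold or more were 3 of the 58 genes in each direction. Of all tested genes, 4.77% were so called in the Shh+ direction and 5.81% in the Nfatc1+ direction, so these counts are near the background.

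On the Shh+ side were Plk3, a stress kinase, at 7.90 ± 0.540 FPKM in Nfatc1+ and 28.2 ± 0.521 in Shh+ cells (mean ± SD, n = 2 libraries a group, log2 difference 1.77, limma adjusted p = 1.6e-05), Gadd45g, a relative of Gadd45a (24.7 ± 0.0685 against 64.8 ± 0.400, 1.37, 1.1e-05), and Aen, a nuclease of apoptotic cells (10.0 ± 0.0545 against 22.7 ± 0.902, 1.14, 7.3e-05). On the Nfatc1+ side was Cdkn1a, which encodes the cell cycle inhibitor p21 and is the best-known p53 target. It was at 44.6 and 43.4 FPKM in Nfatc1+ and 22.7 and 18.6 in Shh+ libraries, without overlap (log2 difference -1.08, SE 0.10, limma adjusted p = 0.000256). Also on that side were Sesn3, the remaining sestrin gene (30.8 ± 2.29 against 12.3 ± 1.92 FPKM, -1.30, 0.000228), and Ak1, an adenylate kinase (10.7 ± 1.22 against 1.998 ± 0.348, -2.16, 7.1e-05). All 6 were called in 12 of 12 alternatives. Of the sestrin genes, Sesn1 and Sesn3 were thus higher in Nfatc1+ cells and Sesn2 was not called. Trp63 and Trp73, the relatives of p53, had the direction opposite to that of Trp53: Trp63, the master regulator of stratified epithelium, was at 311 ± 2.06 against 239 ± 6.79 FPKM (limma adjusted p = 0.00214), and Trp73 at 59.8 ± 3.24 against 40.0 ± 5.30 (0.00397). Both were singled out after their values were seen.

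**Figure D4:**
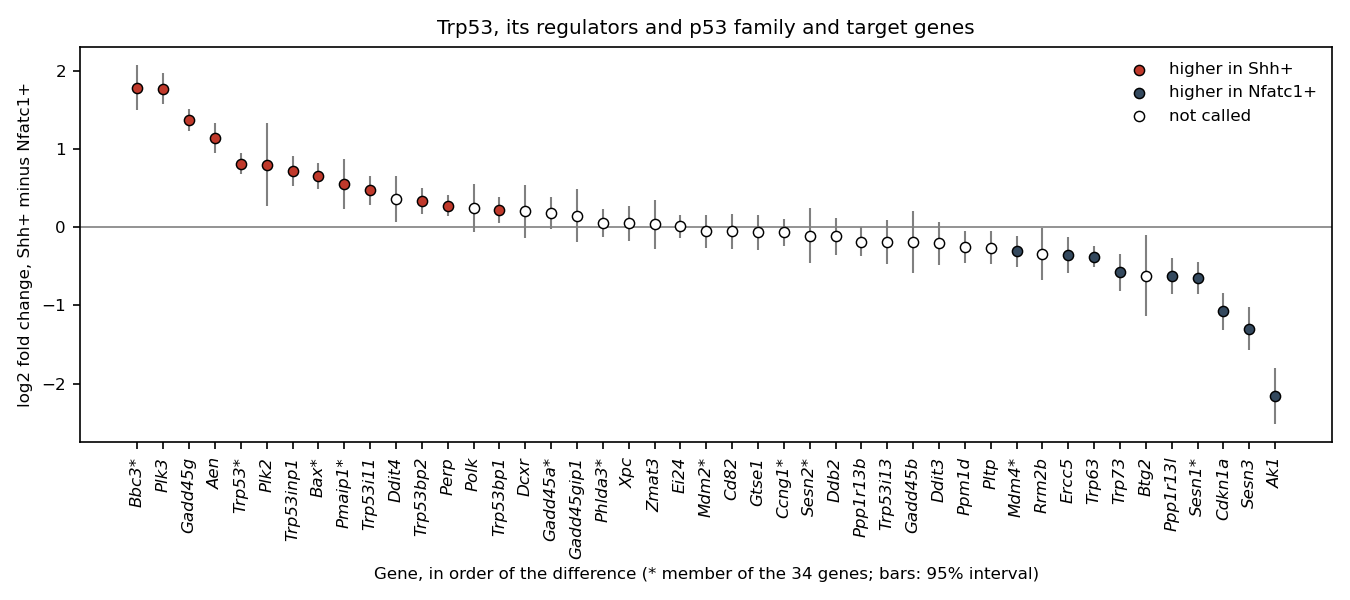
Difference in log2 (FPKM + 0.5) between Shh+ and Nfatc1+ cells for 45 tested genes of the p53 pathway, with the 95% interval from limma (2 libraries a group). Asterisks mark genes among the 34 described here, and p53 targets lie on both sides, from Bbc3 (1.78) to Ak1 (-2.16).

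In some smaller groups of further genes the few called ones are named here, chosen after their values were seen. Of 5 other Bcl2 relatives tested, Bcl2l13 (27.3 ± 0.123 against 20.1 ± 0.157 FPKM, limma adjusted p = 0.00284) and the mitophagy gene Bnip3 (17.7 ± 1.35 against 11.1 ± 0.222, 0.00155) were higher in Nfatc1+ cells, and Bcl2l12 (15.8 ± 0.338 against 19.9 ± 1.53, 0.026) higher in Shh+ cells. The Bcl2l12 call held in 8 of 12 alternatives. It was lost without Nfatc1+ replicate 1, Nfatc1+ replicate 2 or Shh+ replicate 2 and without the trend. Neither of the 2 other inhibitor of apoptosis genes tested, Birc5 and Birc6, was called (limma adjusted p = 0.0672 and 0.144).

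Of 8 death receptor genes and adaptors tested, 3 were called, each with the Nfatc1+ libraries higher, a share of 37.5%, near the 37% of all tested genes. Tnfrsf1a, the main TNF receptor, was at 75.4 and 75.1 FPKM in Nfatc1+ and 40.5 and 40.7 in Shh+ libraries (1.85-fold, log2 difference -0.88, limma adjusted p = 5.4e-05, 12 of 12 alternatives). Tradd, its adaptor, was at 9.37 ± 0.241 against 7.10 ± 0.499 FPKM (limma adjusted p = 0.026), and the kinase Ripk1 at 7.79 ± 0.685 against 5.50 ± 0.757 (0.0305). The call of Tradd held in 8 of 12 alternatives and that of Ripk1 in 7 of 12. Leaving out Nfatc1+ replicate 1, Nfatc1+ replicate 2 or Shh+ replicate 1 ended both calls, and so did the fit with no filter. The Ripk1 call was also lost without the trend. Fas was near 1 FPKM in both populations (1.04 ± 0.643 against 0.899 ± 0.313) and was not called.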

How the data were processed

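RNA of the 4 sorted libraries (total RNA, paired-end reads) was sequenced, mapped by the authors to GRCm38/mm10 with TopHat2 2.0.13 and quantified with Cufflinks 2.2.1. HTSeq is also named in the submitters' processing notes, with no role stated. The deposited values are FPKM per gene, made by the authors, and they hold no counts. Depth is therefore known only relative to 1 library (0.575 for Shh+ replicate 2, the shallowest), from the steps between values below 0.3 FPKM. From these values log2 (FPKM + 0.5) was computed and fitted for genes averaging 0.5 FPKM or more with limma 3.58.1 (R 4.3.3, eBayes with trend, two-sided), with Benjamini-Hochberg adjustment over 12750 genes. All 4 libraries entered without a block. The count of tested genes called at an adjusted p under 0.05 gives the background shares. Scripts were tested on simulated data.

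The 34 genes, the further pathway genes and the marker lists were chosen with earlier results of these data known. Every called gene of the 34 is given, with its value in each library when it differed by at least 1.5-fold, and called further pathway genes with an absolute log2 difference of at least 1 are named. Alternatives changed the pseudocount (0.1 or 1), the filter (none or 1 FPKM), the scaling (upper quartile or median ratio), the trend, the replicate block and the threshold, or left out each library in turn. Same-numbered libraries deviated together only weakly (r = 0.114 over genes, 2 pairs) and no source says that the numbers mark a shared litter or day, so they were not taken as pairs. Gene positions and start windows came from RefSeq (GRCm38.p6, the build of mm10) and exon overlaps from GENCODE. Tigar and genes with no row in the table were not analysed here. The result for 1 further pathway gene is not reported here.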

Additional observations from a re-analysis of the deposited data

How the results depend on the processing

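The 12 other fits and the study-type threshold gave, over the 33 tested genes, 383 results with the same direction and the same side of the threshold, 30 that lost the call, 6 that gained it and 10 that changed sign. The sign changes all came from leaving out 1 library and touched only genes that were not called: the log2 difference ranged from -0.013 to 0.15 for Bak1, -0.071 to 0.029 for Bid, -0.27 to 0.057 for Bad, -0.0018 to 0.11 for Apaf1, -0.14 to 0.037 for Mdm2, -0.27 to 0.052 for Sesn2 and -0.0053 to 0.11 for Phlda3. At an unadjusted p under 0.01 and at least 2-fold, the form of threshold the study used, 600 of all tested genes passed in the Shh+ direction and 734 in the Nfatc1+ direction, with 3 and 2 of the 34 genes and 3 and 3 of the further pathway genes. By role, that threshold kept 2 BH3-only genes in Shh+ cells, and 0 prosurvival genes in either direction, 0 pore-forming genes, 0 of p53 and its Mdm regulators in either direction and 0 p53 targets. Without the trend, 4 of the 34 genes were higher in Nfatc1+ cells, 6 further pathway genes higher in Shh+ cells, 1 prosurvival gene higher in Shh+ and 0 in Nfatc1+ cells, and 0 Mdm regulators in Nfatc1+ cells. With no filter, 1 prosurvival gene was called in each direction. These thresholds and fits change which differences can pass, and the cause of the change without the trend was not tested.

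Leaving out 1 library at a time gave 7 to 9 of the 34 genes higher in Shh+ and 4 to 6 in Nfatc1+ cells (4 without Nfatc1+ replicate 1), beside 1630 to 1804 and 1723 to 2080 of all tested genes. It gave 7 to 8 and 10 to 13 further pathway genes, 1 to 2 prosurvival genes in Shh+ and 1 in Nfatc1+ cells, 3 to 4 BH3-only genes in Shh+ cells, 2 to 3 caspases in Nfatc1+ cells, 0 to 1 pore-forming genes in Nfatc1+ cells (1 without Shh+ replicate 1) and 0 to 1 Mdm regulators in Nfatc1+ cells (0 without Nfatc1+ replicate 1 or Shh+ replicate 1). A group left with 1 library was assumed to vary like the other. With the replicate number as a block, 10 of the 34 genes were higher in Shh+ cells, Bmf being the addition, and 7 in Nfatc1+ cells, beside 2424 and 2523 of all tested genes. The block changed no other call among the 34 genes. Summed levels of the role groups moved by less than the spread between replicates under upper-quartile scaling. Without counts, the precision of low genes such as Bik, Casp14 and Casp1 in Shh+ cells cannot be set by depth, and Shh+ replicate 2 is the shallowest library.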

Other observations

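Among the further pathway genes, 7 were listed at 0 FPKM in all 4 libraries: the prosurvival genes Bcl2a1a, Bcl2a1b and Bcl2a1d, the inhibitor genes Naip2, Naip5 and Birc7, and Fasl, the ligand of Fas. The Bcl2a1 and Naip genes are multigene families with near-identical copies, and their levels are uncertain for that reason.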
